A study of Mus musculus with 12 samples.

Results

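The genes described here are the interleukins and interleukin receptors of tumour-associated macrophages (TAMs), apart from the central IL-1 genes and Il4, Il6, Il10 and Il13. They were taken by name: 85 of the 54532 genes in the count table have a symbol that starts with Il and a number, 12 of these are left out by name, and 73 remain. The 73 carry 71 symbols, because Il11ra2 stands for 3 genes. The name rule also keeps genes that the heading interleukin does not describe: Il1bos, an antisense RNA at the Il1b locus, Il4i1, an amino acid oxidase, and 12 genes of the wider IL-1 family such as Il18rap, Il1rl1 and Il33.

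Rhodamine-positive TAMs, which had taken up rhodamine-labelled perfluoro-crown-ether nanoparticles, were compared with rhodamine-negative TAMs from the same 6 glioma-bearing mice. All 12 libraries come from mice labelled Ntv-a_Ink4a/Arf_KO and treated with Rhodamine_PFCE_NP, so both groups share the deletion and the injection, and no uninjected mice were analysed here. The labels give male for mice 1 to 4 and female for the other 2, and tumours were collected 24 hours after the injection. Each sort held more than 2000 cells positive for CD45 and CD11b and negative for Ly6C, and the ages of the mice are not given in the sources used here. In Ntv-a mice the receptor for the avian RCAS virus is driven by the nestin promoter, which directs gene transfer to neural progenitors. Libraries held 13073189 to 17379314 counts. The CD45 and CD11b genes Ptprc and Itgam had at least 3864 and 2538 counts in every library, and Csf1r, a defining gene of macrophages and microglia, at least 31918. Between the sorts, Ptprc was lower in all 6 rhodamine-positive libraries than in any rhodamine-negative one (log2 fold change -0.56, SE 0.08, edgeR adjusted p = 0.000754), and Csf1r rose by 0.37 (SE 0.13, adjusted p = 0.0498). The macrophage genes Adgre1 and Cd68 rose by 0.81 and 0.87, and Itgam did not pass at 0.11 (adjusted p = 0.482).

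Interleukins are secreted proteins that carry signals between leukocytes. Most of their receptors are built from a chain that binds 1 ligand and a chain that several ligands share, such as the common gamma chain, gp130, IL-10 receptor beta or the beta common chain. These chains have no kinase of their own. Bound JAK kinases phosphorylate STAT transcription factors, and STAT-induced SOCS proteins and CISH then damp the signal. IL-17 receptors and receptors of the IL-1 type signal instead through adaptor proteins that lead to NF-kB. In macrophages IL-10 restrains inflammatory genes, and IL-4 and IL-13 drive alternative activation.

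Among the 24 receptor chains that passed the low-count filter, 3 had groups that did not overlap: Il18rap and Il7r were lower in all rhodamine-positive libraries than in any rhodamine-negative library, and Il11ra1 was higher. Over all 15014 genes tested, 4.67% had such groups with rhodamine-positive below and 4.14% with rhodamine-positive above. Sequences before a listed start of these 3 receptor chains are shown so that the letters can be read beside the values. Each is the stretch free of annotated exons within the 250 bases before a start in RefSeq (GRCm38.p6), written 5′ to 3′ on the strand of the gene. For Il11ra1 it is the second of the starts listed. The Il7r and Il11ra1 stretches lie inside the annotated spans of their genes (positions 9505788 to 9530176 and 41699989 to 41769474). They are therefore not upstream of the whole gene, and the pattern marked for Il7r stands within it. Il18rap is at chr1:40515112-40515361 on the plus strand, Il7r at chr15:9529877-9530040 on the minus strand and Il11ra1 at chr4:41762060-41762308 on the plus strand. Capitals mark the letters GAGGAAGT, a form of the site bound by the myeloid factor PU.1, in Il18rap and TTCNNNGAA, the pattern bound by STAT dimers, in Il7r. Other forms of these sites were not searched for, so unmarked letters may hold them.
Il18rap: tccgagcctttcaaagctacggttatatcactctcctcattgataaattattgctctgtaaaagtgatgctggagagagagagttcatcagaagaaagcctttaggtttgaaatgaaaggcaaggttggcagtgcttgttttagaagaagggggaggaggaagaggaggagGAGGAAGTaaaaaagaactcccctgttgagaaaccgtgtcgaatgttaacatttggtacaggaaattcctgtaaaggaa
Il7r: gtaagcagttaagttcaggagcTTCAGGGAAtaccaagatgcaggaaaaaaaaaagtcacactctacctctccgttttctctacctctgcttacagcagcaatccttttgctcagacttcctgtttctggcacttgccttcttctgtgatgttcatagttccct
Il11ra1: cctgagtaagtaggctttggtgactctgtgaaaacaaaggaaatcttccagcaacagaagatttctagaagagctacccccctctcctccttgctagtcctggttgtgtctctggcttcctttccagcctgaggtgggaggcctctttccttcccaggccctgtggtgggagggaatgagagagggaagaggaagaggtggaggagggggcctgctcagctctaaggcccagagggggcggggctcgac
Both strands were searched, and the 2 patterns do not overlap each other here. TTCNNNGAA stands in 7.02% of the 32851 promoters of the table and GAGGAAGT in 2.44%. Of the 22 genes of this set that passed the low-count filter and have a promoter in the table, 4 hold the STAT pattern (Il12rb2, Il1bos, Il31ra and Il7r) and 2 hold GAGGAAGT (Il18rap and Il4i1). The percentages count single promoters, whereas a gene was counted if any of its promoters held the pattern. The gene counts and the percentages are therefore not on the same basis. A match describes the letters and does not show that a factor is bound.

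TAMs that carried nanoparticles had less RNA of several interleukin receptors. Those that fell include 4 receptor chains of the common gamma chain family besides the shared chain itself, the ligand-binding chain of the IL-10 receptor, the IL-17 receptor chain Il17ra and the IL-18 receptor chain Il18rap. Against this, 3 receptor chains rose: Il11ra1, Il1rl2 and Il10rb. Of the 73 genes, 30 passed the filter on low counts (filterByExpr, minimum count 10). Of these 30, 3 rose and 11 fell at an adjusted p below 0.05 in edgeR's quasi-likelihood test with the mouse as a block, where 13.0% and 13.2% of all 15014 genes tested passed in these directions. Their median log2 fold change, rhodamine-positive minus rhodamine-negative, was -0.51, against -0.02 over all genes tested. A filter on low counts can keep a gene for its level in 1 group alone, so these shares describe the measured genes and not all 73. In bulk RNA of a sort, fewer cells of a type and less RNA per cell cannot be told apart.

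**Figure D1:**
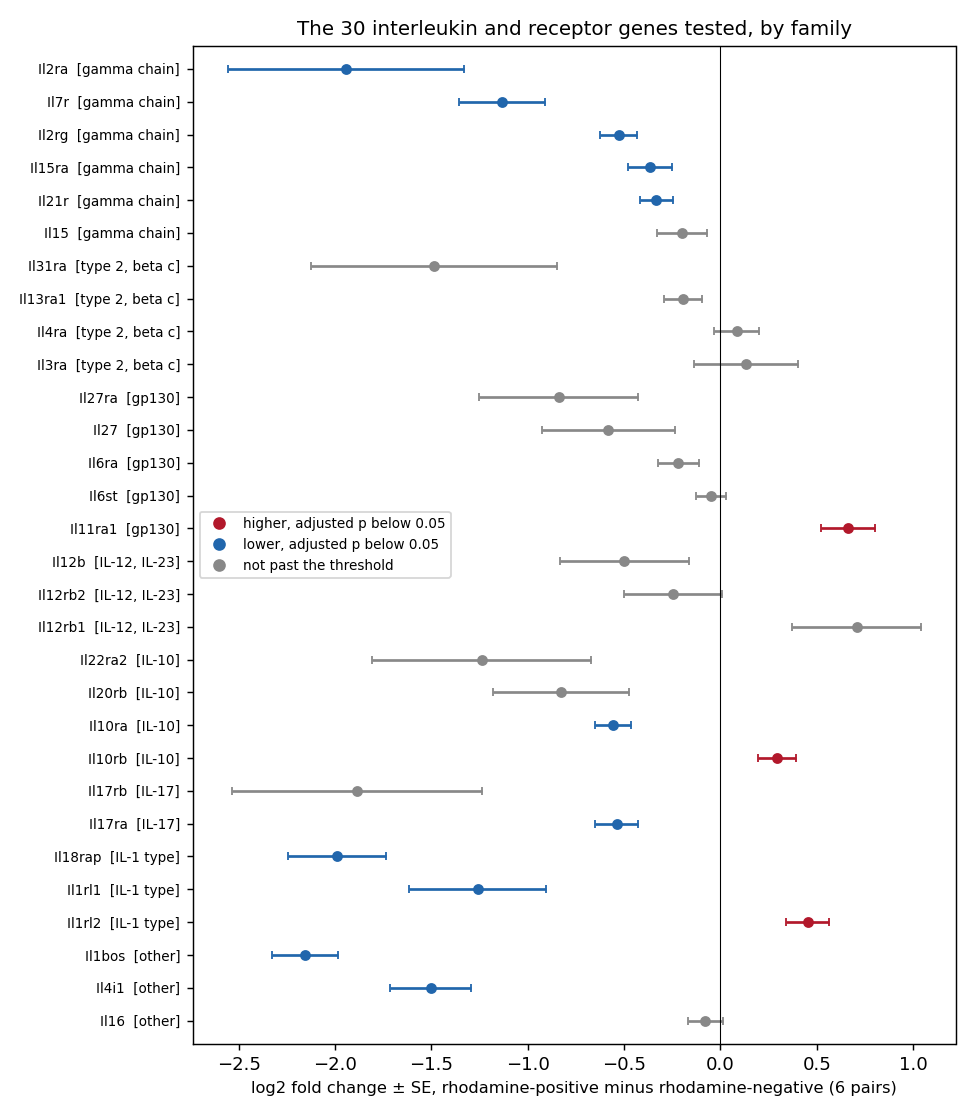
Log2 fold change (x axis, rhodamine-positive minus rhodamine-negative) of the 30 genes tested, 1 row a gene, grouped by family; points are edgeR estimates and bars are standard errors over 6 pairs, coloured by direction where the adjusted p is below 0.05. The 5 tested receptor chains listed under the gamma chain family all lie left of 0, and Il11ra1, Il1rl2 and Il10rb lie right of 0. Il4ra, which also pairs with the common gamma chain, is listed under type 2, lies at 0.09 and did not pass.

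By role, 24 of the 30 genes tested and 12 of the 14 that changed encode receptor chains. Of the 24 receptor chains tested, 9 fell and 3 rose, where 13.2% and 13.0% of all genes tested did. None of the 4 cytokines tested, Il15, Il16, Il27 and Il12b, passed, and their log2 fold changes ran from -0.58 to -0.08. None of these 4 was below 0.05 without adjustment in edgeR or passed in DESeq2 or limma-voom. The 2 remaining genes, Il1bos and Il4i1, both fell.

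Scaled for exon length, the 6 most abundant genes of the set were receptor chains in both sorts, in an order that differed between the sorts. In rhodamine-positive libraries Il4ra, the IL-4 receptor alpha chain, averaged 183.7 ± 65.4 TPM (transcripts in 1000000) and Il10ra 165.2 ± 35.6 TPM (SD, n = 6). Il21r followed at 99.3 ± 29.9, Il10rb at 91.9 ± 10.7 and Il2rg at 90.4 ± 21.7 TPM, then Il13ra1, the partner of Il4ra in the receptor for IL-4 and IL-13, at 67.95 ± 7.03 TPM. Il4ra and Il10ra differed by less than their SDs there, as did Il21r, Il10rb and Il2rg among themselves, whereas Il21r lay below Il10ra by more than either SD. In rhodamine-negative libraries Il10ra came first at 275 ± 69.3 TPM, followed by Il4ra at 191 ± 45.5, Il2rg at 148 ± 41.4 and Il21r at 139 ± 33.4 TPM (SD, n = 6). Il13ra1 averaged 88.4 ± 17.6 and Il10rb 84.5 ± 9.53 TPM in that sort. There Il10ra lay above Il4ra by more than either SD, and Il21r above Il13ra1 likewise, while Il2rg and Il21r, and Il13ra1 and Il10rb, differed by less. The most abundant cytokine was Il16, a chemoattractant for CD4-bearing cells, at 29.2 ± 4.27 TPM in rhodamine-positive and 34.9 ± 6.83 TPM in rhodamine-negative libraries (SD, n = 6 each).

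In the common gamma chain family, 5 of 12 genes fell and none rose, 1 was tested and did not pass and 6 did not reach the filter. Il4ra, which also pairs with the common gamma chain, was counted in the type 2 family instead and did not pass (estimate 0.09, edgeR adjusted p = 0.629). Il2rg (ENSMUSG00000031304; chromosome X, positions 101264378 to 101268255, mm10) encodes the shared chain that pairs with the specific chains for IL-2, IL-4, IL-7, IL-9, IL-15 and IL-21. Its level ran from 74.0 through a median of 93.2 to 134 CPM (counts in 1000000, TMM-scaled) in rhodamine-positive libraries, against 108 through 128 to 187 CPM in rhodamine-negative libraries. The ranges overlap, but Il2rg was lower in the rhodamine-positive sort of all 6 mice. It fell by 0.53 on the log2 scale (SE 0.09, adjusted p = 0.00211).

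Il7r, the IL-7 receptor alpha chain and also part of the TSLP receptor, lies on chromosome 15, positions 9505788 to 9530176. It had 4.49 to 9.96 CPM with a median of 7.27 in rhodamine-positive libraries, against 10.2 to 39.4 CPM with a median of 13.5 in rhodamine-negative libraries. The groups do not overlap, and the highest value belongs to the rhodamine-negative library of mouse 5. It fell by 1.13 on the log2 scale (SE 0.22, adjusted p = 0.00351), 2.19-fold lower. Crlf2, the other chain of the TSLP receptor and outside the set, fell by 0.81 (SE 0.22, adjusted p = 0.0198). Leaving out mouse 3 or mouse 5 took Crlf2 past 0.05 (adjusted p = 0.0681 and 0.0682).

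Il21r, the IL-21 receptor, ran from 119.5 through 126 to 208 CPM in rhodamine-positive and from 143 through 175 to 231 CPM in rhodamine-negative libraries. Mice 5 and 6 were high in both sorts, the groups overlap, and within each of the 6 mice the rhodamine-positive sort was lower. Il21r fell by 0.33 on the log2 scale (SE 0.09, adjusted p = 0.0152).

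Il15ra, which binds IL-15 and presents it to neighbouring cells, ran from 15.9 through 25.8 to 39.5 CPM in rhodamine-positive and from 17.7 through 39.1 to 48.8 CPM in rhodamine-negative libraries. Mice 2 and 3 were low in both sorts, and all 6 mice were lower in the rhodamine-positive sort. Il15ra fell by 0.37 (SE 0.11, adjusted p = 0.0347). With mouse 1, 3, 4 or 6 left out the test was missed (adjusted p = 0.0641 to 0.109).

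Il2ra, the IL-2 receptor alpha chain CD25, had 0.0624 through 0.704 to 4.20 CPM in rhodamine-positive and 2.44 through 2.83 to 10.45 CPM in rhodamine-negative libraries. The rhodamine-positive library of mouse 4 was above its rhodamine-negative partner, and the other 5 mice were lower. Il2ra fell by 1.94 (SE 0.61, adjusted p = 0.0365), but with mouse 2, 3, 5 or 6 left out the test was missed (adjusted p = 0.0817 to 0.103). It was also missed by limma-voom (adjusted p = 0.0527) and by edgeR in male mice alone (-1.32, adjusted p = 0.26). Il15 itself had a log2 fold change of -0.20 (SE 0.13, adjusted p = 0.286). Il2rb, the beta chain shared by IL-2 and IL-15, did not reach the filter, so it was not tested: it had 1 count over the 6 rhodamine-positive libraries against 82 over the 6 rhodamine-negative ones, 34 of them in mouse 6. Il7 was below the filter too, with 21 against 79 counts.

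**Figure D2:**
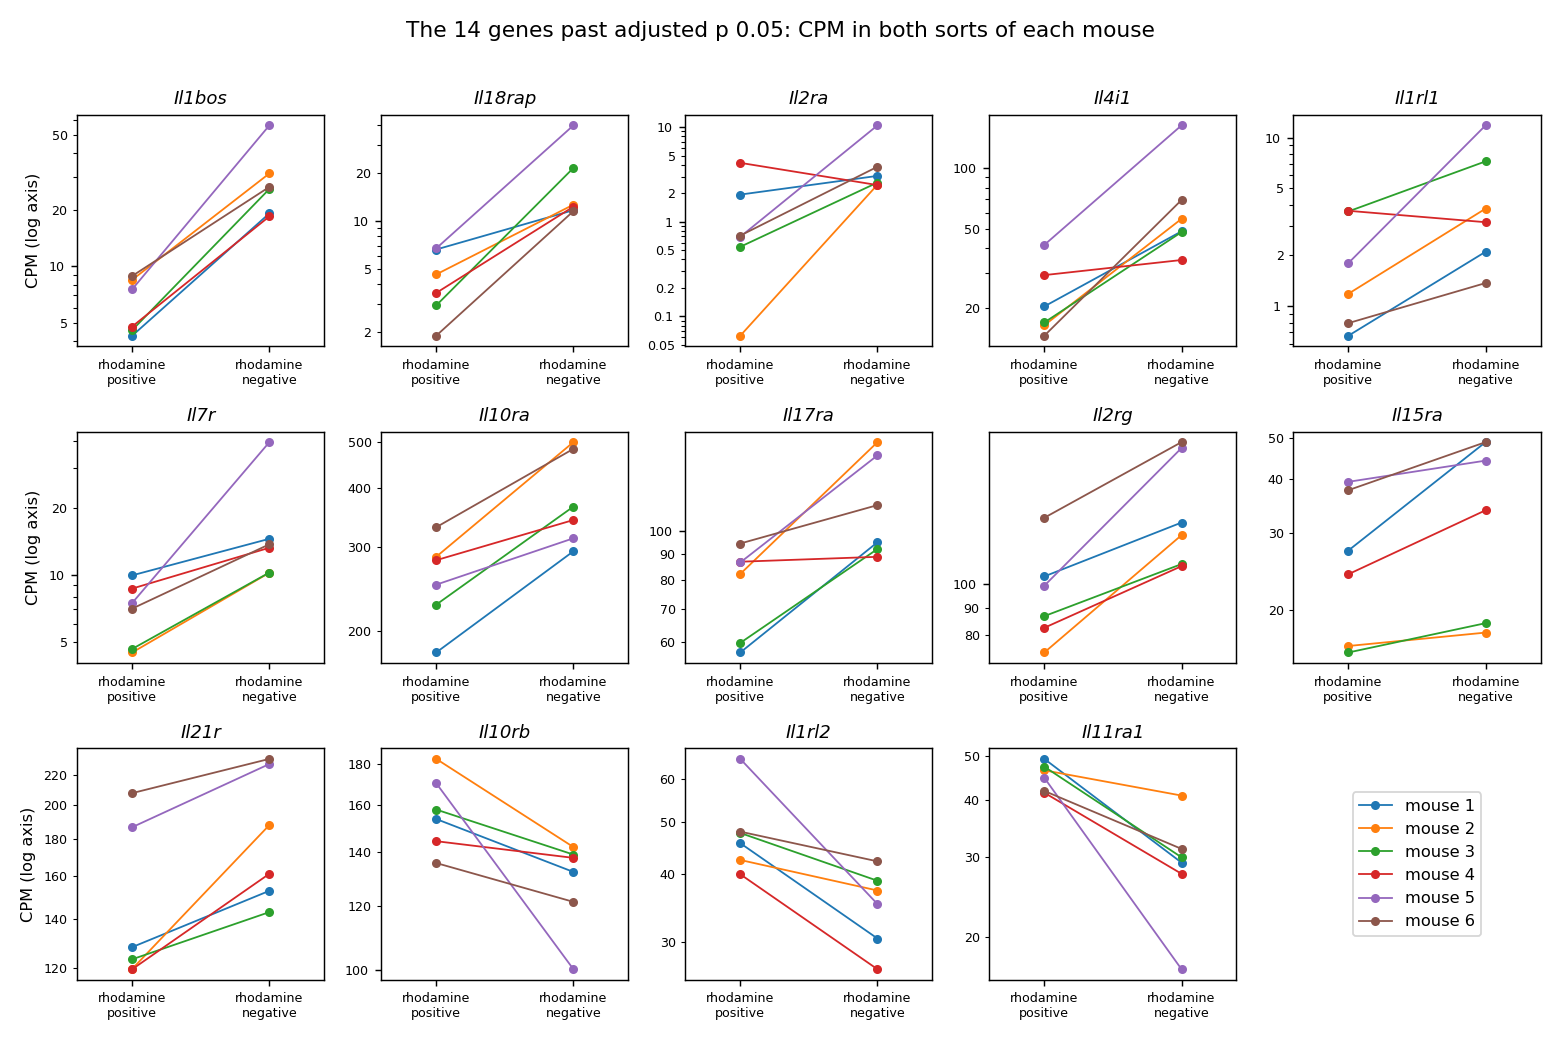
CPM (log axis, 1 scale a panel) of the 14 genes past the threshold in the rhodamine-positive sort (left) and rhodamine-negative sort (right) of each mouse, with a line joining the sorts of a mouse. The lines for Il2ra and Il1rl1 slope the other way in mouse 4, and the rhodamine-negative library of mouse 5 is the highest for Il7r, Il18rap, Il4i1, Il1bos, Il2ra and Il1rl1.

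The chains of the IL-10 receptor moved apart. Il10ra (ENSMUSG00000032089; chromosome 9, positions 45253837 to 45269149), which binds IL-10 and is specific to it, ran from 180 through 266 to 331 CPM in rhodamine-positive and from 294 through 354 to 499 CPM in rhodamine-negative libraries. It fell by 0.56 on the log2 scale (SE 0.09, adjusted p = 0.00126), in 6 of 6 mice. Il10rb (ENSMUSG00000022969; chromosome 16, positions 91406164 to 91425834), which IL-10 shares with IL-22 and other ligands, ran from 136 through 156 to 182 CPM in rhodamine-positive and from 100.3 through 135 to 142 CPM in rhodamine-negative libraries. It rose by 0.29 (SE 0.10, adjusted p = 0.0451), also in 6 of 6 mice. This call is close to the threshold: Il10rb did not pass when any 1 mouse other than mouse 4 was left out (adjusted p = 0.0713 to 0.0994), nor with library size alone, where its log2 fold change was 0.13.

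The count ratio of Il10ra to Il10rb within a library does not depend on how libraries are scaled. It was 1.67 ± 0.45 in rhodamine-positive and 2.99 ± 0.67 in rhodamine-negative libraries (SD, n = 6 each), and was lower in the rhodamine-positive sort of all 6 mice. The ratio was chosen after the values were seen and is a description.

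The other 2 genes of the IL-10 family tested are scarce. Il20rb, a chain of the receptors for IL-19, IL-20 and IL-24, averaged 1.47 ± 0.72 CPM in rhodamine-positive and 2.47 ± 0.61 CPM in rhodamine-negative libraries (SD, n = 6 each) and did not pass (adjusted p = 0.106). Il22ra2, a soluble receptor that binds and blocks IL-22, averaged 0.986 ± 0.78 CPM in rhodamine-positive and 2.15 ± 1.46 CPM in rhodamine-negative libraries (SD, n = 6 each) and did not pass (adjusted p = 0.13).

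In the gp130 family, Il11ra1 (ENSMUSG00000073889; chromosome 4, positions 41699989 to 41769474), the specific chain of the IL-11 receptor, rose. It ran from 41.4 through 45.5 to 49.2 CPM in rhodamine-positive and from 17.0 through 29.5 to 40.9 CPM in rhodamine-negative libraries. Every rhodamine-positive library lay above every rhodamine-negative one, which 4.14% of all genes tested showed. Il11ra1 rose by 0.66 (SE 0.14, adjusted p = 0.00506), 1.58-fold. Mice carry close copies of this gene under the name Il11ra2, whose 3 entries had at most 3 counts in any library, so how reads were divided among the copies is uncertain. Its ligand Il11 had 3 counts over the rhodamine-positive and 3 over the rhodamine-negative libraries.

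The shared chain gp130 and the IL-6 receptor did not pass. Il6st, which encodes gp130, ran from 58.3 through 74.7 to 96.7 CPM in rhodamine-positive and from 56.8 through 81.7 to 98.9 CPM in rhodamine-negative libraries, with a log2 fold change of -0.05 (SE 0.08, adjusted p = 0.691). Il6ra ran from 43.8 through 59.1 to 74.0 CPM in rhodamine-positive and from 52.0 through 69.7 to 84.5 CPM in rhodamine-negative libraries, with -0.22 (SE 0.11, adjusted p = 0.155). Il6ra passed, as lower, with library size alone (log2 fold change -0.38, adjusted p = 0.0202). Il27, the p28 subunit of IL-27, and its receptor Il27ra had log2 fold changes of -0.58 and -0.84 and did not pass.

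None of the 9 genes of the type 2 and beta common family passed in edgeR, 4 of them tested; 1 of these, Il31ra, was below 0.05 without adjustment and passed, as lower, in DESeq2 and limma-voom. Il4ra ran from 375 through 403 to 702 CPM in rhodamine-positive and from 338 through 451 to 574 CPM in rhodamine-negative libraries. It was higher in 4 of 6 rhodamine-positive sorts, and the estimate was 0.09 (SE 0.12, adjusted p = 0.629), or -0.07 with library size alone. Il13ra1 ran from 97.3 through 115 to 123 CPM in rhodamine-positive and from 110.5 through 127 to 167 CPM in rhodamine-negative libraries, an estimate of -0.19 (SE 0.10, adjusted p = 0.17). With library size alone Il13ra1 was lower by the test (-0.35, adjusted p = 0.0285). Il3ra, the IL-3 receptor alpha chain, had an estimate of 0.13 (SE 0.27), or -0.03 with library size alone, whereas Csf2rb, the beta common chain outside the set, fell by 0.55 (SE 0.12, adjusted p = 0.00579). Csf2rb has a close copy, Csf2rb2, at -0.30 (SE 0.17, adjusted p = 0.218), so the split of reads between these is uncertain. The IL-31 receptor chain Il31ra had an estimate of -1.49 (SE 0.64, adjusted p = 0.108), and without mouse 4 of -2.03 (adjusted p = 0.0285). Leaving out any other single mouse gave -1.02 to -1.67 (adjusted p = 0.12 to 0.323), male mice alone -0.86 (adjusted p = 0.53), and leaving out both mice 3 and 5 -0.57 (adjusted p = 0.608).

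None of the 3 tested genes of the IL-12 and IL-23 family passed in edgeR or in DESeq2 or was below 0.05 without adjustment; limma-voom called Il12rb1 higher. Il12b, the p40 subunit that IL-12 and IL-23 share, had 7.56 ± 5.51 CPM in rhodamine-positive and 9.59 ± 4.39 CPM in rhodamine-negative libraries (SD, n = 6 each; adjusted p = 0.297 in edgeR). It passed, as lower, without mouse 2 (-0.86, adjusted p = 0.0321), and without any other single mouse the estimate was -0.29 to -0.64 (adjusted p = 0.275 to 0.595). The receptor chain Il12rb1 was set apart by 1 animal: mouse 6 had 25.4 CPM in the rhodamine-positive and 12.2 CPM in the rhodamine-negative sort, against at most 3.94 and 1.63 CPM in the other mice. Its estimate was 0.71 (SE 0.33, adjusted p = 0.139), and 0.96 without mouse 2 (adjusted p = 0.0357). Without any other single mouse it was 0.53 to 0.89 (adjusted p = 0.0639 to 0.468). Il12rb2 had an estimate of -0.25 (SE 0.26), and 1519 of its 3794 exon bases overlap the abundant gene Serbp1 on the other strand. Il12a and Il23a, the partners of p40, were below the filter with 10 against 13 and 14 against 47 counts over rhodamine-positive and rhodamine-negative libraries.

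Il17ra (ENSMUSG00000002897; chromosome 6, positions 120463247 to 120487559), the chain common to the receptors of the IL-17 cytokines, fell. It ran from 57.2 through 84.3 to 94.4 CPM in rhodamine-positive and from 88.8 through 104 to 151 CPM in rhodamine-negative libraries. The groups overlap at their edges, and the difference within mouse 4 was only -0.03 on the log2 scale. Il17ra fell by 0.54 (SE 0.11, adjusted p = 0.00533). Il17rb, which binds IL-25 together with Il17ra, had 0.419 ± 0.355 CPM in rhodamine-positive and 1.78 ± 2.02 CPM in rhodamine-negative libraries (SD, n = 6 each). It missed the threshold (adjusted p = 0.051), and passed without mouse 4, by DESeq2 and by limma-voom (adjusted p = 0.00705, 0.0131 and 0.0234). Without mouse 1, 2, 5 or 6 it did not (-1.43 to -1.85, adjusted p = 0.0896 to 0.182), nor in male mice alone (-1.30, adjusted p = 0.349), and without mouse 3 it was below the filter. The other 9 genes of the family were below the filter, and Il17a, Il17b and Il25 had 5, 0 and 0 counts over all libraries.

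Among the IL-1 type genes that the name rule keeps, Il18rap (ENSMUSG00000026068; chromosome 1, positions 40515362 to 40551705), the signalling chain of the IL-18 receptor, had 1.91 through 4.08 to 6.72 CPM in rhodamine-positive and 11.5 through 12.5 to 39.7 CPM in rhodamine-negative libraries. The groups do not overlap; groups that do not overlap with rhodamine-positive below were found for 3 of the 30 genes tested and for 4.67% of all genes tested. Il18rap fell by 1.99 (SE 0.25, adjusted p = 0.000262), 3.97-fold lower. Its binding partner Il18r1 did not reach the filter, with 5 counts over the rhodamine-positive and 146 over the rhodamine-negative libraries, 67 of them in mouse 5.

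Il1rl1, the receptor ST2 for IL-33, had 0.668 through 1.49 to 3.68 CPM in rhodamine-positive and 1.37 through 3.47 to 11.8 CPM in rhodamine-negative libraries. Mice 3 and 5 had the highest rhodamine-negative levels, and mouse 4 was higher in the rhodamine-positive sort. It fell by 1.26 (SE 0.36, adjusted p = 0.0229), but with mouse 1, 2, 3 or 5 left out the test was missed (adjusted p = 0.0541 to 0.0804). Il33 itself had 39 counts over the rhodamine-positive and 57 over the rhodamine-negative libraries, 32 of the 39 in mouse 5.

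Il1rl2, the receptor for the IL-36 cytokines, went the other way. It ran from 40.0 through 46.6 to 65.3 CPM in rhodamine-positive and from 26.7 through 36.2 to 42.2 CPM in rhodamine-negative libraries. The rhodamine-positive sort was higher in 6 of 6 mice, and Il1rl2 rose by 0.45 (SE 0.11, adjusted p = 0.0119). It did not pass with library size alone, at 0.29 (adjusted p = 0.0685). The IL-36 cytokine genes, named Il1f6, Il1f8 and Il1f9 in the table, had 0, 0 and 15 counts over all libraries.

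Basophil, dendritic cell and monocyte transcripts, and Klrd1 of the natural killer (NK) cell list, moved with these genes. All 4 tested of 8 basophil and mast cell markers (Mcpt8, Gata2, Hdc and Cyp11a1) fell, and the summed level of the 8 ran from 0.2495 to 25.3 CPM in rhodamine-positive and from 8.55 to 496 CPM in rhodamine-negative libraries. The highest sums, 296 and 496 CPM, were in the rhodamine-negative libraries of mice 3 and 5. All 7 dendritic cell markers fell, with sums of 145 to 264 CPM in rhodamine-positive and 393 to 1457 CPM in rhodamine-negative libraries, the highest again in mouse 5. Of 4 monocyte markers 3 fell, with sums of 31.6 to 78.1 CPM in rhodamine-positive and 226 to 571 CPM in rhodamine-negative libraries. Of 5 NK cell markers only Klrd1 was tested and fell, with sums of 2.30 to 10.95 CPM in rhodamine-positive and 40.5 to 86.7 CPM in rhodamine-negative libraries. Klrd1 alone ran from 1.98 to 9.94 CPM and from 37.9 to 82.8 CPM there, so the sums are mostly Klrd1. Ncr1, a defining NK receptor, had no count in 10 of the 12 libraries. The 7 T cell markers summed to 5.82 to 17.0 CPM in rhodamine-positive and 4.56 to 8.42 CPM in rhodamine-negative libraries. Of these, Cd4 rose by 0.90 (SE 0.24, adjusted p = 0.016), Lck did not pass, and Cd3e, Cd3d and Cd3g had at most 8 counts in any library. The 4 neutrophil markers, none tested, summed to 0 to 3.17 CPM in rhodamine-positive and 0 to 6.27 CPM in rhodamine-negative libraries. Of these, Retnlg had 219 counts over all libraries, S100a8 97, S100a9 70 and Ly6g 1. The part of these cell types in the genes that fell was not tested. With mice 3 and 5 left out, a choice made after the values were seen, 1 gene rose and 7 fell of 29 tested. Over all 15196 genes tested there, 783 rose and 1038 fell. Il1rl1, Il2ra, Il15ra, Il17ra, Il10rb and Il1rl2 then did not pass.

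Both genes that are neither cytokine nor receptor fell. Il1bos (ENSMUSG00000074805; chromosome 2, positions 129369897 to 129375748) ran from 4.28 through 6.17 to 8.89 CPM in rhodamine-positive and from 18.4 through 26.2 to 56.3 CPM in rhodamine-negative libraries, with no overlap, and fell by 2.16 (SE 0.17, adjusted p = 8.67e-06). It shares 25 exon bases with Il1b on the other strand. The strand setting of the counting is not given in the sources used here, so reads of Il1bos and Il1b cannot be told apart with certainty. Il4i1 (ENSMUSG00000074141; chromosome 7, positions 44816387 to 44840809), a secreted enzyme that breaks down phenylalanine and tryptophan, ran from 14.6 through 18.7 to 41.4 CPM in rhodamine-positive and from 34.8 through 52.2 to 164 CPM in rhodamine-negative libraries. The groups overlap through mouse 5, the highest in both sorts. Il4i1 fell by 1.50 (SE 0.21, adjusted p = 0.000464), in 6 of 6 mice. Of its 4080 exon bases, 3423 overlap Tbc1d17 on the other strand, which makes its count uncertain in the same way. Il16 ran from 77.7 through 106 to 123 CPM in rhodamine-positive and from 87.7 through 110 to 140 CPM in rhodamine-negative libraries, with an estimate of -0.08 (SE 0.09, adjusted p = 0.557). Il16 shares 1202 of 7865 exon bases with Stard5 on the other strand. Il34, the second ligand of CSF1R, had 1 against 14 counts over the rhodamine-positive and rhodamine-negative libraries.

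**Figure D3:**
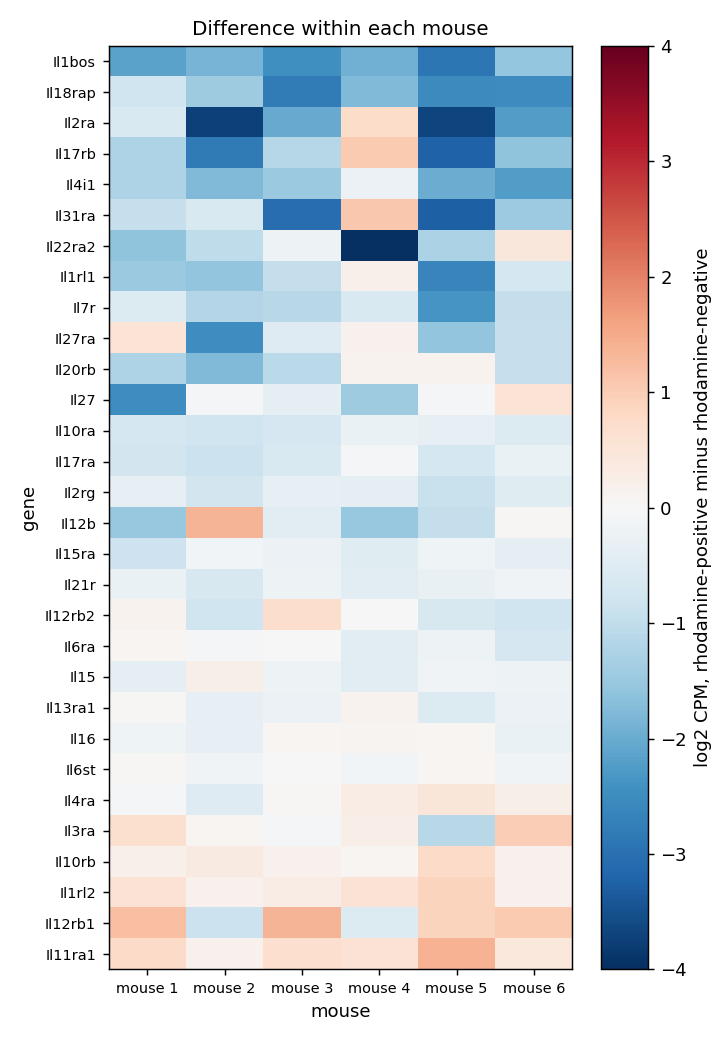
Difference in log2 CPM between the rhodamine-positive and rhodamine-negative sort within each mouse (columns) for the 30 genes tested (rows, ordered by their mean difference); blue is lower and red higher in the rhodamine-positive sort. Values run from -4.02 to 1.39, and mouse 4 is red for Il2ra, Il17rb, Il31ra and Il1rl1, which are blue in the other 5 mice.

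Within mice, 9 of the 30 genes were lower and 3 were higher in all 6 rhodamine-positive sorts, against 14.0% and 14.2% of all genes tested. In mouse 4 Il2ra, Il17rb, Il31ra and Il1rl1 were higher by 0.75, 1.05, 1.08 and 0.22 on the log2 scale, while the other 5 mice were lower. Among rhodamine-negative libraries, that of mouse 4 had the lowest sums of basophil, dendritic cell and monocyte markers (8.55, 393 and 226 CPM). Its sums were also the lowest for T cell and glioma lineage markers (4.56 and 49.9 CPM) and the highest for microglia markers (11180 CPM). The part of these transcripts in the values of mouse 4 was not tested. Without mouse 4, 3 genes rose and 12 fell, where 1780 and 1820 of all 15042 genes tested did. The effect of the sort was compared between the 2 female and the 4 male mice by an interaction term, and none of the 30 genes passed in edgeR or in limma-voom (0.00% of all genes tested in edgeR). At an unadjusted p below 0.05, 1 of the 30 was found, where 1160 of all 15014 genes tested were. It was Il4i1, whose log2 fold change in females minus that in males was -0.92 (SE 0.35, edgeR unadjusted p = 0.0242, adjusted p = 0.618).

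Of the 73 genes, 43 did not reach the filter. Among them 7 had no count in any library, and the other 36 had at most 67 in a library. Besides those named above, the interleukins of T cells and innate lymphoid cells were at the limit of detection: Il2, Il5, Il21 and Il22 had 4, 7, 2 and 4 counts over all 12 libraries, and Il3 and Il9 had none. The receptor chains Il17re and Il17rc had 4 and 14 counts over the rhodamine-positive and 38 and 48 over the rhodamine-negative libraries.

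Partner chains and downstream genes of these receptors were described by a second list. It held 40 genes outside the set (partner chains and ligands, JAK and STAT genes, feedback genes). Of the 34 tested, none rose and 14 fell, where 13.0% and 13.2% of all 15014 genes tested did so. Without adjustment in edgeR, none of the 34 was higher and 21 were lower at p below 0.05. The share of all genes at that unadjusted p is not given here. DESeq2 and limma-voom also called none of the 34 higher. The 34 had a median log2 fold change of -0.31, against -0.02 over all genes tested. Both the receptors and this list were chosen with earlier results of these data known. Among 11 JAK and STAT genes, all tested, 4 fell. Stat4, the factor activated by IL-12 receptors, had 3.03 through 4.47 to 7.28 CPM in rhodamine-positive and 8.42 through 12.8 to 36.2 CPM in rhodamine-negative libraries, without overlap, and fell by 1.60 (SE 0.19, adjusted p = 0.000166). Jak2, the kinase on beta common and IL-12 receptors, fell by 1.22 (SE 0.22, adjusted p = 0.00215), Stat5a, activated by gamma chain and beta common receptors, by 0.91 (SE 0.14, adjusted p = 0.00103), and Stat2, of the interferon pathway, by 0.51 (SE 0.14, adjusted p = 0.0212). Stat2 missed the threshold without mouse 1 or 2 (adjusted p = 0.0663 and 0.0534). Jak1, Jak3 and Stat6, the kinases of Il2rg-containing receptors and the factor activated by IL-4, had estimates of 0.14, 0.12 and 0.14 and did not pass.

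**Figure D4:**
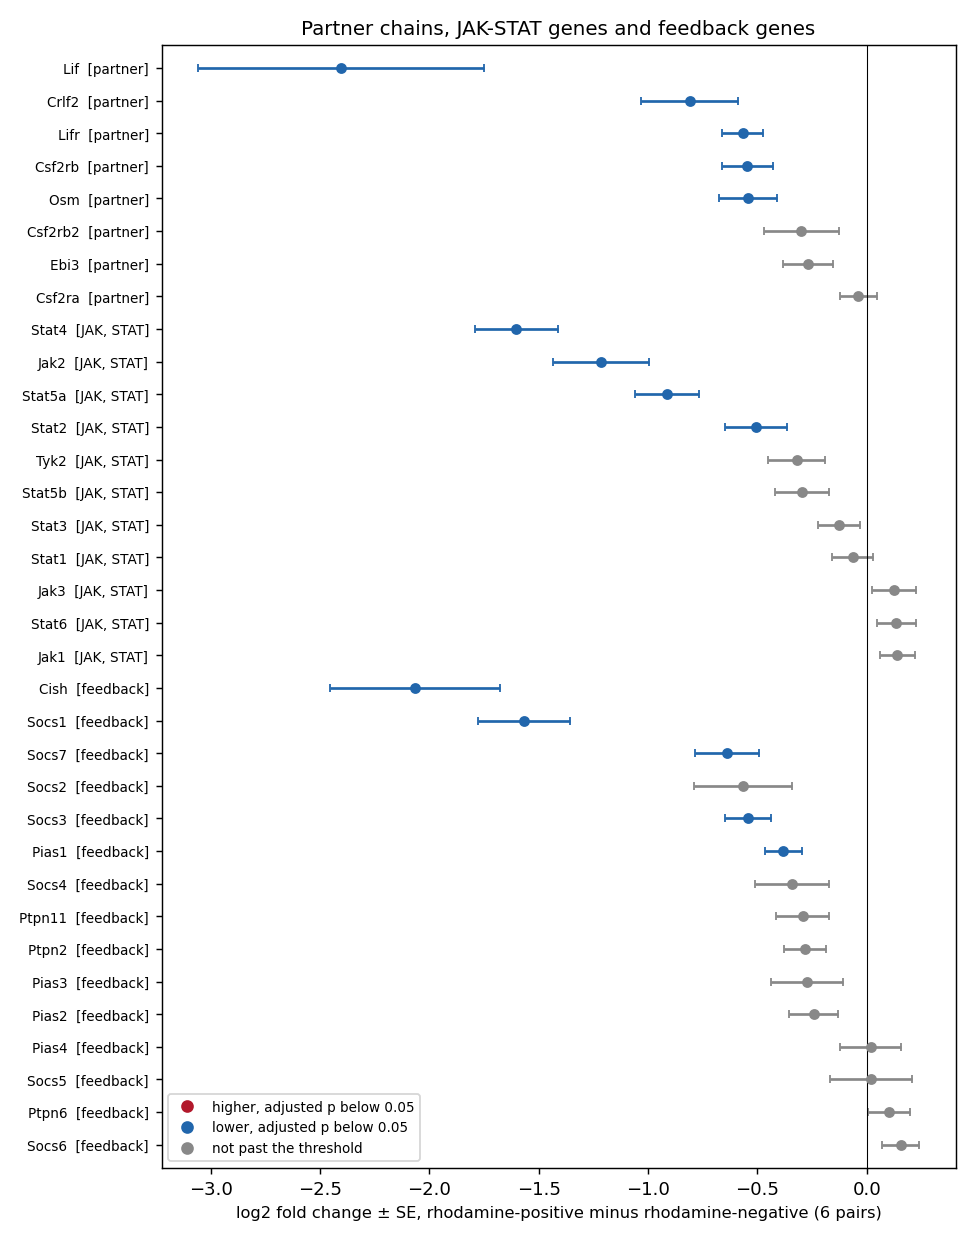
Log2 fold change (x axis, rhodamine-positive minus rhodamine-negative) of the 34 tested partner, JAK-STAT and feedback genes outside the set, 1 row a gene; points are edgeR estimates and bars are standard errors over 6 pairs. The 14 genes past the threshold, all lower, are led by Lif, Cish, Stat4 and Socs1.

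Of 15 feedback genes, all tested, 5 fell. Cish, a STAT5-induced inhibitor, had 0.187 through 7.47 to 11.02 CPM in rhodamine-positive and 10.9 through 22.7 to 74.4 CPM in rhodamine-negative libraries. The groups overlap only at their edges, and all 6 mice were lower in the rhodamine-positive sort. Cish fell by 2.07 (SE 0.39, adjusted p = 0.00283). Socs1, an inhibitor of JAK kinases induced by interferon gamma and other cytokines, fell by 1.57 (SE 0.21, adjusted p = 0.000359) and Socs3, an inhibitor of gp130 signalling, by 0.54 (SE 0.10, adjusted p = 0.00315). Socs7 and Pias1 fell by 0.64 and 0.38.

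Of 14 partner chains and ligands, 8 were tested and 5 fell. Lifr, the LIF receptor that pairs with gp130, fell by 0.57 (SE 0.09, adjusted p = 0.00129). Osm, a gp130 cytokine made by macrophages, ran from 193 through 243 to 308 CPM in rhodamine-positive and from 268 through 329 to 495 CPM in rhodamine-negative libraries and fell by 0.54 (SE 0.13, adjusted p = 0.0115). Lif, another gp130 cytokine, fell by 2.40 (SE 0.65, adjusted p = 0.019) from few reads, with 41 counts over the rhodamine-positive and 152 over the rhodamine-negative libraries. Ebi3, the partner of Il27 in IL-27, had an estimate of -0.27 and did not pass. Scaled to library size alone, 23 of the 34 genes were lower, and the median of all genes was then -0.18. Apart from Lif, Cish and Stat4, the genes of this list were named after their values were seen.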

How the data were processed

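Polyadenylated RNA of 12 libraries was read on an Illumina instrument, according to the labels' protocols. The authors deposited raw counts per gene and a log2 table of normalized values for 10605 genes; all 12 library files equalled the count table. bcl2fastq 2.17, cutadapt, HISAT2 2.1.0, featureCounts 1.4.4, edgeR, limma and build mm10 are named, per the submitters' processing notes, without roles; the strand setting is not given in the sources used here.

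Genes were filtered by filterByExpr (minimum count 10, minimum total 15) and scaled by TMM. All genes were tested together by quasi-likelihood in edgeR 4.0.16 (R 4.3.3), with Benjamini-Hochberg adjustment and the mouse as a block. SE is the absolute log2 fold change over the root of F. Both sorts came from the same animal, per the series description; deviations of the sorts of a mouse correlated across genes at 0.226, 0.207, 0.289, 0.0775, 0.302 and 0.45 for mice 1 to 6, lowest in mouse 4. Log2 CPM used a prior count of 2. TPM, computed from the counts, used union exon lengths of GENCODE vM21 (mm10), which also gave coordinates and overlaps. The procedure was tested on simulated counts. DESeq2 1.42.0 and limma 3.58.1 were alternatives.

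The genes and lists were chosen with earlier results of these data known. Genes past the threshold with a mean of at least 1 CPM, and others with at least 20 CPM, are given with the lowest, median and highest library; of the second list, at most the 3 largest changes past the threshold in each direction were to be named, and none had risen. Protein sequences were not used here. With the mouse as a block, p-values weigh the difference between the sorts against how much that difference varied from mouse to mouse.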

Additional observations from a re-analysis of the deposited data

Results flagged for a closer look

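A library was noted where it stood apart from the other 5 of its sort by Dixon's criterion (its gap to the nearest library over the whole range), which chance meets in about 1 of 20 groups. Of 60 sets of 6 libraries looked at, 12 met it, and 9 of the 12 are high values of mouse 5. In the rhodamine-positive sort, Il1rl2 had 65.3 CPM in mouse 5, Il12rb1 25.4 CPM in mouse 6 and Il27 13.7 CPM in mouse 6, where the other libraries reached 47.9, 3.94 and 5.68 CPM. In the rhodamine-negative sort, mouse 5 had 56.3 CPM of Il1bos, 39.7 of Il18rap and 163.6 of Il4i1, where the others reached 31.2, 21.5 and 69.4 CPM. That library also had 39.4 CPM of Il7r, 10.45 of Il2ra and 8.23 of Il3ra, where the others reached 14.5, 3.82 and 4.63 CPM. It had 5.68 CPM of Il17rb and 7.77 of Il31ra, against at most 2.04 and 1.63 CPM in the others. In the rhodamine-negative sort of mouse 6, Il12rb1 was 12.2 CPM, against at most 1.63 CPM in the others.

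The rhodamine-negative library of mouse 5 also had the highest summed basophil and dendritic cell markers (496 and 1457 CPM) and the lowest summed microglia markers (3830 CPM, against 7152 to 11180 CPM in the other rhodamine-negative libraries). Their part in these values was not tested.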

How the results depend on the processing

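The reported test called 3 genes higher and 11 lower. Without the replicate block that pairs the sorts of a mouse, 2 were higher and 7 lower, and Il21r, Il1rl1, Il15ra, Il2ra and Il10rb, and Lif and Stat2 of the second list, did not pass (adjusted p = 0.215, 0.105, 0.381, 0.0937, 0.074, 0.206 and 0.442). Over all 15014 genes tested, 1270 were higher and 1398 lower without the block. With library size alone 1 was higher and 14 lower, against 852 and 3142 of all 15014 genes. Without mice 3 and 5, a setting chosen after the data were seen, 1 was higher and 7 lower, against 783 and 1038 of 15196 genes. Leaving out 1 mouse at a time gave 2 to 3 higher and 8 to 12 lower, against 1257 to 1780 and 1421 to 1820 over all genes tested. DESeq2, RLE size factors, limma-voom, the deposited log2 table, the filters and male mice alone gave 2 to 4 higher and 8 to 16 lower, within 1.5 times of the main counts. In male mice alone Il1rl1, Il15ra, Il2ra and Il10rb did not pass, and limma-voom did not call Il2ra. On the deposited log2 table, limma also called Il11ra2, which has at most 3 counts in a library. The 14 lower genes of the second list became 23 with library size alone and stayed between 10 and 16 in the other settings. Over single genes, 612 of 682 values kept direction and side of the threshold, 49 no longer passed, 15 newly passed and 6, never past the threshold, changed sign. No value past the threshold changed sign. Without a filter, Il18r1, Il17re, Il22ra2, Il17rb, Il31ra and Il2rb also passed, as lower; there the median log2 fold change over all genes was -0.315. The causes were not tested. Genes under about 1 CPM rest on few reads and their estimates have the widest errors.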
